A study of Caenorhabditis elegans with 4 samples.

Results

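The fatty acid desaturases of Caenorhabditis elegans, fat-1 to fat-7, and the nuclear receptors nhr-49 and nhr-80 were followed in adults that had been starved as hatchlings. These 9 genes were chosen by name, with sequence names matched to symbols through the Ensembl annotation of WBcel235, and all 9 were found among the 13758 rows of the expression table and were tested. The animals carried either fasn-1(g14), a mutation in the fatty acid synthase gene (strain GG14), or no mutation (strain N2, the Bristol wild type), with 2 whole-animal libraries per group, biological replicates 3 and 4 per the design text. Both groups had spent 8 days without food from hatching and then about 68 hours on HT115 bacteria carrying an empty vector, at 20 °C, and were collected as early adults when eggs appeared. Levels are CPM, read counts scaled to library size and composition, and folds are ratios of mean CPM. Changes are differences of log2(CPM + 1), mutant minus wild type, with the standard error (SE) of the limma fit.

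Fatty acid synthase makes palmitate, a saturated chain. A desaturase puts a double bond into a chain at a fixed place, and the delta-9 enzymes make the first one: FAT-5 acts mainly on palmitate, while FAT-6 and FAT-7 turn stearate into oleate. Worms, unlike mammals, can go on from oleate to every polyunsaturated fatty acid (PUFA) they need, through the delta-12 enzyme FAT-2, the omega-3 enzyme FAT-1, the delta-6 enzyme FAT-3 and the delta-5 enzyme FAT-4. NHR-49 and NHR-80 are nuclear receptors related to mammalian HNF4 that promote transcription of delta-9 desaturase genes, and the intestine is a main site of fat metabolism in the worm.

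All 4 PUFA desaturase genes rose in the mutant, by 1.25-fold to 1.67-fold, and the delta-9 genes did not share 1 direction. Among those, fat-7 rose 2.21-fold from a low level, fat-6 stood at 1.14 times and fat-5 at 0.615 times its wild-type mean, and neither fat-6 nor fat-5 passed the test. Neither receptor gene passed. In all, 5 of the 9 members rose and 0 fell (limma, adjusted p below 0.05 over 12977 genes), against 4.41% of all genes tested that rose and 10.7% that fell. Among the 4094 genes averaging 50 CPM or more, which include 6 of the members, 6.23% rose and 3.86% fell. On reads recovered from the CPM values, edgeR called 4 members higher and 0 lower, against 3.38% and 7.04% of all genes, and DESeq2 called 5 higher and 0 lower, against 3.91% and 8.15%. Fewer members passed without wild type replicate 3 or without wild type replicate 4, and so did fewer of all genes tested. These p-values set the genotype difference against the spread between replicate libraries. With 2 libraries per group, that spread is partly borrowed from other genes of like level. Groups that do not overlap were common: 31.2% of tested genes had both mutant libraries above both wild-type libraries and 32.9% had both below. By that looser measure 7 members were above and fat-5 was below; among the genes averaging 50 CPM or more, the shares were 48.6% and 13.8%.

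**Figure D1:**
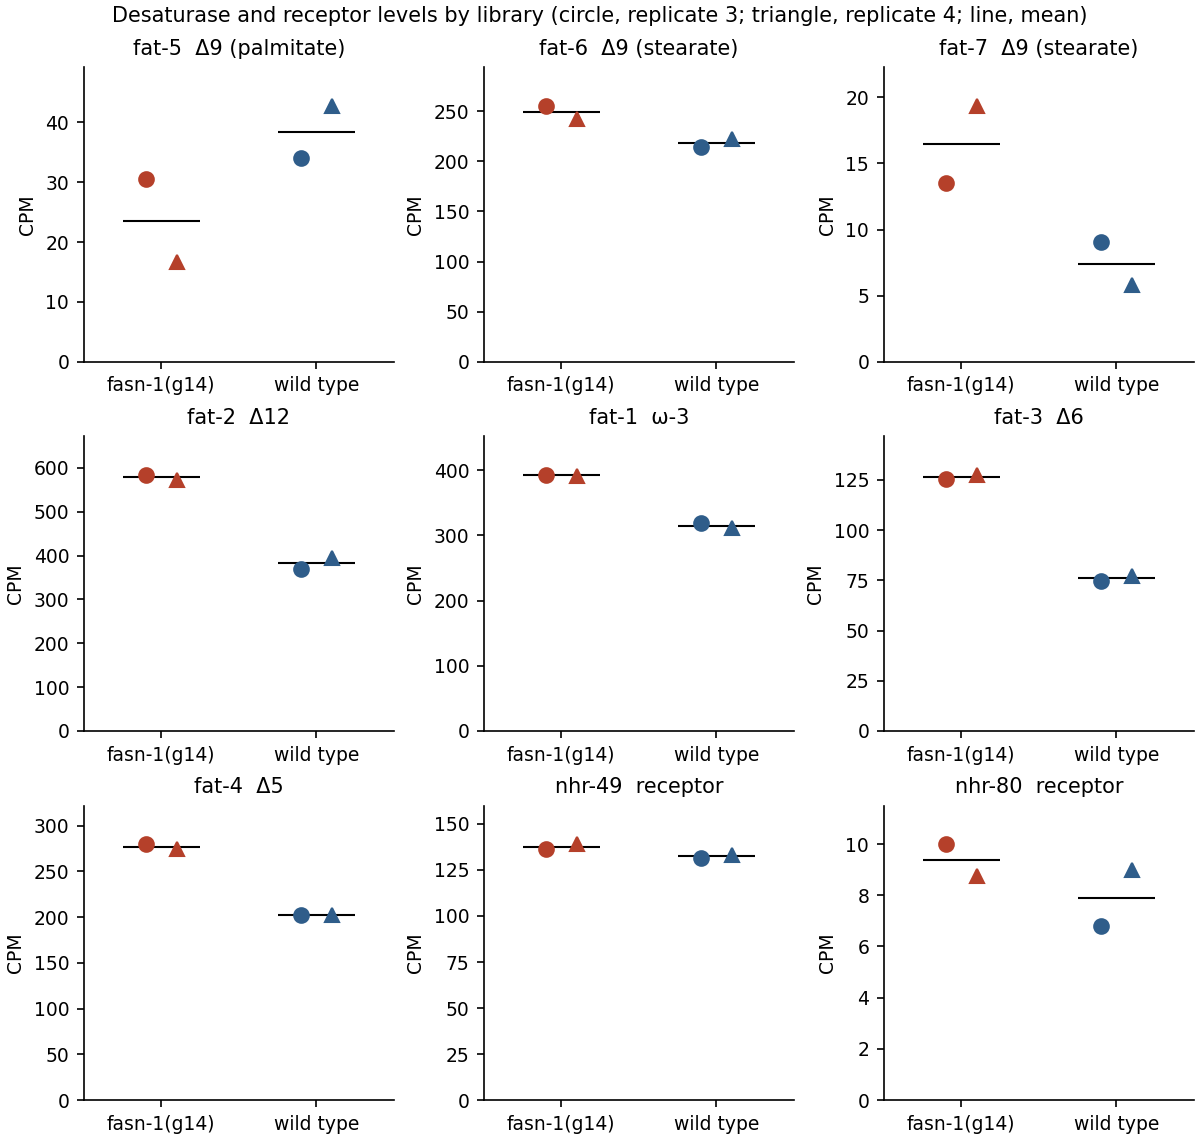
Level of each desaturase and receptor gene in CPM (vertical axes, each from 0) in the fasn-1(g14) and wild-type libraries; circles are replicate 3, triangles replicate 4 and lines group means. The 4 PUFA desaturase genes have mutant libraries close together and above the wild-type ones, fat-5 and fat-7 spread widely between replicates, and only nhr-80 has groups that overlap.

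The libraries held 13960509 to 15889424 recovered reads each. The transcript of the mutated gene, fasn-1, stood at 353 and 285 CPM in the mutant and at 369 and 410 CPM in wild type, and its log2 change of -0.29 (SE 0.11) did not pass (limma, adjusted p = 0.1196), so the transcript level does not check the genotype labels. The mutant libraries were less alike than the wild-type ones, with a Pearson correlation across genes of 0.988 in the mutant and 0.995 in wild type. Among all genes tested 4.41% rose and 10.7% fell. Markers of some tissues moved with the genotype: 5 of 7 pharyngeal genes and 6 of 8 neuronal genes fell. Of 8 intestinal genes 3 rose, and 0 of 8 germline genes passed the test. For pharynx the summed levels were 335 and 159 CPM in the mutant against 1130 and 1213 CPM in wild type. For neurons they were 412 and 348 CPM against 578 and 622 CPM. Of 8 epidermal genes 1 rose and 2 fell. The collagen gene col-19 was at 2.29 times its wild-type mean, and dpy-7 and sqt-3 were at 0.41 and 0.35 times. Epidermal sums were 1254 and 1203 CPM in the mutant and 1188 and 1192 CPM in wild type. The 4 sperm genes tested rose, with sums over 5 measured of 18.6 and 26.0 CPM in the mutant. In wild type these sums were 2.39 and 4.11 CPM. Germline genes summed to 6062 and 7350 CPM in the mutant and 5930 and 5551 CPM in wild type. No marker measured was at 0 in any library. In whole animals, fewer cells of a type and less RNA per cell cannot be told apart.

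The delta-9 genes lie apart from each other. The gene fat-5 (W06D12.3) is on chromosome V from 17725004 to 17726818 on the plus strand, fat-6 (VZK822L.1) on chromosome IV from 11913692 to 11915687 on the minus strand, and fat-7 (F10D2.9) on chromosome V from 7151353 to 7153146 on the minus strand, all in WBcel235. FAT-6 and FAT-7 are close copies with overlapping activity, so reads of their genes can be split between them. The gene fat-5 overlaps twk-42, a potassium channel gene on the other strand, which the unstranded libraries cannot separate from it; twk-42 itself was measured at 2.70 and 3.69 CPM in the mutant and at 3.96 and 4.79 CPM in wild type.

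The level of fat-7 was 13.5 and 19.4 CPM in mutant replicates 3 and 4, from 200 and 299 reads, and 9.05 and 5.80 CPM in wild type replicates 3 and 4, from 144 and 86 reads. Both mutant libraries lay above both wild-type ones, and the replicates of each group differed by about as much as mutant replicate 3 differed from wild type replicate 3. The log2 change was 1.06 (SE 0.26, 95% interval 0.44 to 1.67; limma, adjusted p = 0.0385), higher than that of 98.6% of tested genes. The call was lost by edgeR on recovered reads (adjusted p = 0.0506), with plain CPM (0.0601), when genes averaging under 5 CPM were left out of the fit (0.0615) and without wild type replicate 4 (0.235), and the log2 change over all settings ran from 0.77 to 1.34. Thus fat-7 had the largest fold of the 7 desaturase genes and the least read support.

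The main stearate desaturase transcript was fat-6, at 255 and 243 CPM in the mutant and 214 and 222 CPM in wild type. The groups did not overlap, but at 0.19 on the log2 scale (SE 0.07, 95% interval 0.02 to 0.36) fat-6 missed the threshold over all genes (limma, adjusted p = 0.1203). With plain CPM the value was 0.09, and without mutant replicate 4 it was 0.23. Of the reads of fat-6 and fat-7 together, fat-6 held 94.97% and 92.6% in the mutant libraries and 96.0% and 97.5% in the wild-type libraries. The share of fat-6 was thus 2.91 percentage points lower on average in the mutant, a shift larger than the SD of 1.67 points in the mutant and 1.06 points in wild type, with no test made.

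The palmitate desaturase gene fat-5 was measured at 30.5 and 16.7 CPM in mutant replicates 3 and 4 and at 33.99 and 42.8 CPM in wild type replicates 3 and 4. Mutant replicate 3 lay close to wild type replicate 3, and mutant replicate 4 lay well below all the others. The log2 change of fat-5, -0.73 (SE 0.26, 95% interval -1.33 to -0.13), missed the threshold (limma, adjusted p = 0.0962). Set against the wild-type mean, fat-5 was at -0.31 in mutant replicate 3 and at -1.14 in mutant replicate 4. The ratio of fat-7 to fat-5 in CPM was 0.443 and 1.16 in the mutant libraries and 0.266 and 0.136 in the wild-type libraries, so that fat-7 exceeded fat-5 in mutant replicate 4 and in none of the other libraries.

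Along the PUFA branch, fat-2 encodes the first step after oleate. It lies on chromosome IV from 13323873 to 13326395 on the plus strand (W02A2.1). Its level was 584 and 573 CPM in the mutant and 370 and 394 CPM in wild type, a 1.51-fold rise with a gap between the groups many times the gap within them. The log2 change was 0.60 (SE 0.07, 95% interval 0.43 to 0.77; limma, adjusted p = 0.00736), and without wild type replicate 3 the adjusted p was 0.0553.

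Upstream of it on the same strand lies fat-1 (Y67H2A.8, chromosome IV, 13315644 to 13318811), which encodes the omega-3 desaturase that converts omega-6 chains to omega-3 chains. The level of fat-1 was 393 and 392 CPM in the mutant and 318 and 311 CPM in wild type. Its rise of 1.25-fold was the smallest of the 4 (log2 change 0.32, SE 0.07; limma, adjusted p = 0.0282). With plain CPM the log2 change of fat-1 was 0.22 (limma, adjusted p = 0.0493). The call was lost without wild type replicate 3 or 4 (adjusted p = 0.208 and 0.323). The ratio of fat-1 to fat-2 in CPM was 0.672 and 0.683 in the mutant libraries and 0.861 and 0.789 in the wild-type libraries, so the mutant had less fat-1 transcript for each fat-2 transcript, without overlap and with no test made.

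The front-end desaturase genes lie side by side, with fat-4 (T13F2.1, delta-5; chromosome IV, 9799429 to 9802226) followed after 796 bases by fat-3 (W08D2.4, delta-6; 9803023 to 9806119), both on the plus strand. The delta-6 gene fat-3, at 126 and 127 CPM in the mutant and 74.6 and 77.4 CPM in wild type, had the largest rise of the branch, 1.67-fold. Its log2 change of 0.73 (SE 0.08, 95% interval 0.54 to 0.91; limma, adjusted p = 0.00465) passed under all 13 alternative settings, the only member to do so. The delta-5 gene fat-4 was measured at 280 and 274 CPM in the mutant and at 203 and 203 CPM in wild type, with no overlap. The rise of fat-4 was 1.37-fold (log2 change 0.45, SE 0.07; limma, adjusted p = 0.0124), and without wild type replicate 3 or 4 it did not pass (adjusted p = 0.0822 and 0.109). As a share of the reads of both neighbours, fat-3 held 31.0% and 31.7% in the mutant and 26.9% and 27.6% in wild type. The transcript of the delta-6 step, which precedes the delta-5 step, therefore gained on its neighbour by 4.08 percentage points on average, against an SD of 0.526 points in the mutant and 0.498 points in wild type, a difference not tested.

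The pairs fat-4 with fat-3 and fat-1 with fat-2 have 4 outer neighbours. Of these 3 were measured and 0 rose, where 4.41% of all genes tested rose. The gene dct-15, beside fat-3, was not analysed here. Beside fat-4, T13F2.2 on the other strand was measured at 52.8 and 57.4 CPM in the mutant and 50.5 and 53.4 CPM in wild type (log2 change 0.08; limma, adjusted p = 0.598). Before fat-1, Y67H2A.7 had a log2 change of 0.19 (limma, adjusted p = 0.264). After fat-2, at a distance of 1963 bases on the same strand, far-6, which encodes a fatty acid and retinol binding protein, fell to 56.0 and 58.5 CPM in the mutant, against 90.0 and 81.2 CPM in wild type (log2 change -0.57; limma, adjusted p = 0.0147). The gap between fat-1 and fat-2 is 5061 bases.

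**Figure D2:**
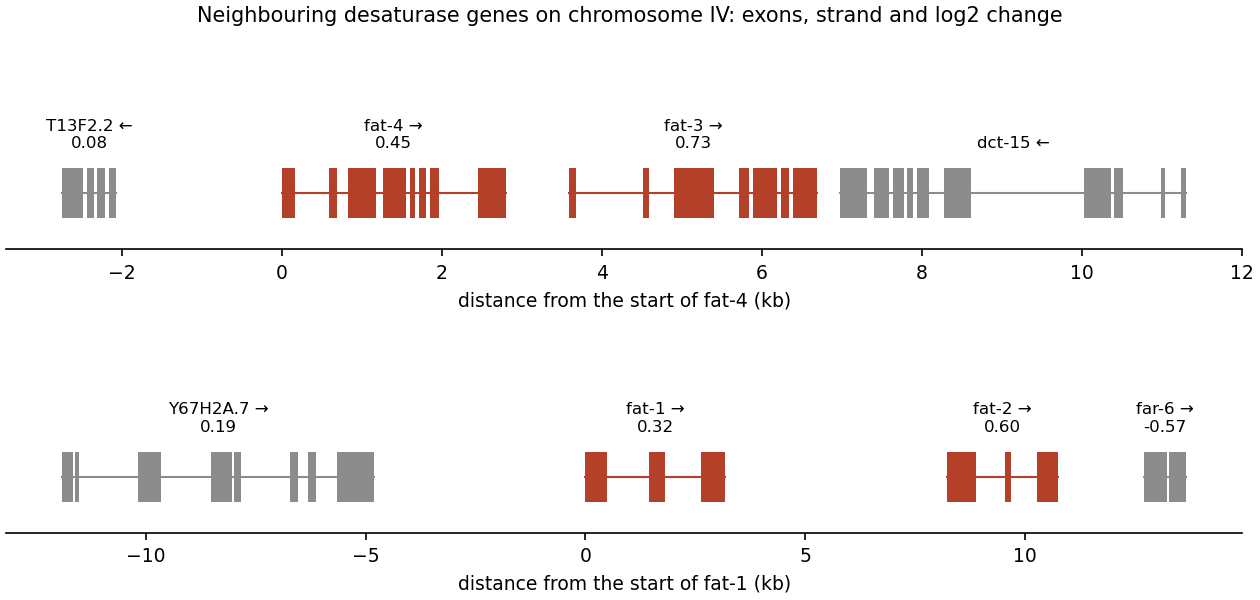
Exons (boxes), strand (arrows) and log2 change (mutant minus wild type, number above each gene) of the adjacent desaturase genes and their outer neighbours on chromosome IV; the horizontal axes give distance in kb from the start of fat-4 or of fat-1. The 4 desaturase genes changed by 0.32 to 0.73, T13F2.2 by 0.08, Y67H2A.7 by 0.19 and far-6 by -0.57; dct-15 is drawn for its position only.

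The PUFA desaturase genes differed little between the mutant libraries. Their log2 values in mutant replicates 3 and 4 differed by 0.0039 for fat-1 to 0.0285 for fat-4, while the median gap over the 4094 genes averaging 50 CPM or more was 0.124. Between 88.3% and 98.3% of those genes had a larger gap than each of the 4. Gaps of fat-6 and nhr-49 in the mutant were also below that median, at 0.0744 and 0.0282. Thus all 6 members averaging 50 CPM or more lay below that median, which by definition splits the 4094 genes evenly. Between the wild-type libraries the 4 PUFA genes had gaps of 0.00063 for fat-4 to 0.0912 for fat-2, with fat-2 above the wild-type median of 0.0664 over the same 4094 genes. Against the wild-type mean, fat-2 was at 0.61 and 0.58 and fat-3 at 0.72 and 0.74 in mutant replicates 3 and 4. The delta-9 genes fat-5 and fat-7, measured from fewer reads, had gaps of 0.83 and 0.49 in the mutant and 0.32 and 0.56 in wild type.

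Levels of different genes were compared per kb of exon (CPM per kb). The order in the mutant was fat-2 at 461 ± 6.10, fat-1 at 277 ± 0.536, fat-6 at 214 ± 7.81, fat-4 at 180 ± 2.52, fat-3 at 84.8 ± 0.886, nhr-49 at 64.6 ± 0.900, fat-5 at 21.4 ± 8.82, fat-7 at 14.6 ± 3.67 and nhr-80 at 5.11 ± 0.486 CPM per kb (SD, n = 2). In wild type fat-2 stood at 305 ± 13.6, fat-1 at 222 ± 3.65, fat-6 at 187 ± 4.75, fat-4 at 132 ± 0.0410, nhr-49 at 62.1 ± 0.422, fat-3 at 50.9 ± 1.29, fat-5 at 34.8 ± 5.62, fat-7 at 6.59 ± 2.04 and nhr-80 at 4.29 ± 0.842 CPM per kb (SD, n = 2). The orders differed at 1 place, where fat-3 lay above nhr-49 in the mutant and below it in wild type. Values of neighbours in the order did not overlap, except those of fat-5 and fat-7 in the mutant, and in wild type replicate 4 fat-7, at 5.15 CPM per kb, came close to nhr-80, at 4.89 CPM per kb.

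Summed per kb of exon, the 4 PUFA genes came to 1009 and 997 in the mutant and to 701 and 717 in wild type, and the 3 delta-9 genes came to 259 and 240 in the mutant and to 223 and 234 in wild type. The PUFA sum was thus 1.41 times and the delta-9 sum 1.09 times its wild-type mean. The ratio of the PUFA sum to the delta-9 sum was 3.90 and 4.15 in the mutant libraries and 3.15 and 3.06 in the wild-type libraries. On the log2(CPM + 1) scale the mean of fat-1 to fat-4 lay above the mean of fat-5 to fat-7 by 2.62 and 2.75 in the mutant and by 2.29 and 2.38 in wild type. That difference was 0.35 greater in the mutant, between 0.29 and 0.42 with any 1 library left out, and no p is given for it because the genes were chosen by name with earlier results known.

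Within the delta-9 sum, fat-6 made up 84.7% and 86.6% in the mutant and 82.6% and 81.3% in wild type, so the sum mostly followed the 1 gene. The share of fat-5 was 10.7% and 6.30% in the mutant and 13.8% and 16.5% in wild type, and that of fat-7 was 4.64% and 7.15% in the mutant and 3.61% and 2.197% in wild type. Both shares separated the groups. Within the PUFA sum, fat-2 made up 46.1% and 45.8% in the mutant and 42.0% and 43.8% in wild type, and fat-1 made up 27.5% and 27.7% in the mutant and 32.1% and 30.6% in wild type. These shares are descriptions of 4 libraries and were not tested.

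**Figure D3:**
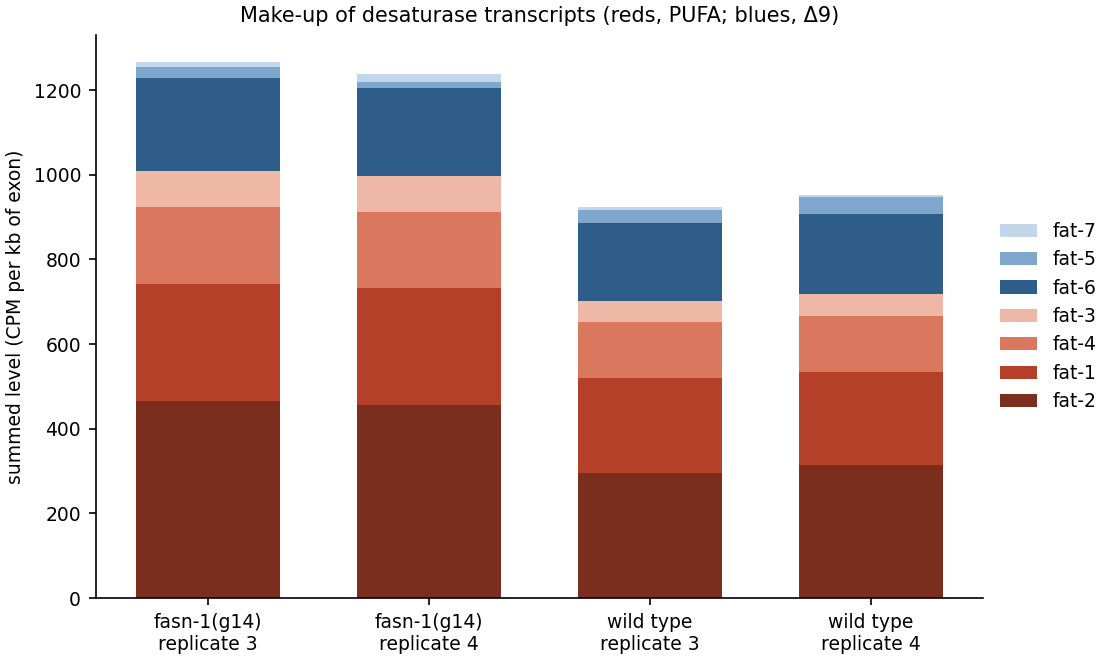
Summed level of the 7 desaturase genes in CPM per kb of exon (vertical axis) in each library, stacked by gene, with PUFA desaturase genes in reds and delta-9 genes in blues. The mutant bars reach 1267 and 1237 and the wild-type bars 924 and 952, and the added height lies mostly in the red segments.

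Of 8 intestinal markers listed, ges-1, cpr-6 and asp-4 rose and elt-2, elt-7, act-5, ifb-2 and mtl-2 did not pass. Log2 changes of these 5 were 0.29, -0.08, 0.35, -0.005 and 0.32, in that order. Both mutant libraries lay above both wild-type ones for 6 of the 8, as for 31.2% of tested genes. The 8 summed to 2146 and 2305 CPM in the mutant and 1476 and 1592 CPM in wild type. Most of that sum came from cpr-6, asp-4 and act-5, at means of 1013, 531 and 489 CPM in the mutant. Their wild-type means were 612, 367 and 383 CPM, and cpr-6 and asp-4 were among the 3 genes that rose. The ratio of the summed PUFA desaturase CPM to that marker sum was 0.644 and 0.593 in the mutant and 0.654 and 0.619 in wild type, so the ratio overlapped between the groups. Against ifb-2 alone, an intestinal intermediate filament gene at 105 and 109 CPM in the mutant and 108 and 108 CPM in wild type, fat-2 stood at 5.54 and 5.24 times in the mutant and 3.43 and 3.67 times in wild type. The part of intestinal content in the rise of the PUFA genes was not tested.

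The receptor gene nhr-49 (K10C3.6, chromosome I, 9869651 to 9874680, plus strand) was measured at 136 and 139 CPM in the mutant and 132 and 133 CPM in wild type. The groups did not overlap, but the distance was small: a log2 change of 0.06 (SE 0.07, 95% interval -0.11 to 0.23; limma, adjusted p = 0.631), with the sign turned to -0.04 by plain CPM. The interval bounds any change of its transcript at this depth and scaling. Levels of nhr-80 (H10E21.3, chromosome III, 11985 to 14869, minus strand) were 10.0 and 8.74 CPM in the mutant and 6.79 and 8.97 CPM in wild type, and these overlap. From 108 to 148 reads per library the log2 change of nhr-80 was 0.23 (SE 0.22, 95% interval -0.28 to 0.75; limma, adjusted p = 0.504), which leaves room for changes as large as those of the PUFA genes.

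The 7 genes in the list of regulators are known to act with the receptors or on the desaturase genes. Of these, 0 rose and 0 fell, against 4.41% and 10.7% of all genes tested. At those shares a list this short can hold 0 calls. Their median log2 change was 0.13, against 0.002 over all genes tested. The sterol regulatory factor gene sbp-1 was at 35.3 and 43.3 CPM in the mutant and 30.7 and 33.7 CPM in wild type (log2 change 0.28, SE 0.13; limma, adjusted p = 0.199). The Mediator subunit gene mdt-15, a coactivator of both SBP-1 and NHR-49, was at 209 and 203 CPM in the mutant and 199 and 208 CPM in wild type, with groups that overlap. The gene acdh-11, an acyl-CoA dehydrogenase that restrains fat-7, had a log2 change of 0.26 (SE 0.10; limma, adjusted p = 0.116). Some regulators were set against the wild-type mean, on the log2 scale, in mutant replicates 3 and 4. In that order sbp-1 was at 0.13 and 0.42, nhr-13 at 0.20 and 0.72, iglr-2 at -0.02 and 0.23 and acdh-11 at 0.30 and 0.23.

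Desaturases draw electrons through cytochrome b5 and its reductase. Of that list cytb-5.1, cytb-5.2 and hpo-19, 0 of 3 passed, with log2 changes of -0.04, 0.10 and 0.21 and a median of 0.10. A list of 3 can hold 0 calls at the shares of all genes tested, 4.41% higher and 10.7% lower. The reductase gene hpo-19 was at 171 and 190 CPM in the mutant and 154 and 158 CPM in wild type (limma, adjusted p = 0.125). Its level lay 0.13 and 0.28 above the wild-type mean on the log2 scale in mutant replicates 3 and 4.

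The list of chain synthesis and elongation had a median log2 change of 0.55. Where 4.41% of all genes tested rose and 10.7% fell, 4 of its 8 genes rose and 0 fell. They were hpo-8, the acyl-CoA dehydratase gene of elongation (0.56, SE 0.09), let-767, the ketoacyl-CoA reductase gene of elongation (0.55, SE 0.11), elo-2, which encodes the elongase that lengthens palmitate (0.56, SE 0.13), and pod-2, for acetyl-CoA carboxylase (0.34, SE 0.07). By limma their adjusted p were 0.0148, 0.0223, 0.0321 and 0.0262, in that order. The PUFA elongase gene elo-1, which works between the delta-6 and delta-5 steps, was at 278 and 316 CPM in the mutant and 275 and 276 CPM in wild type and did not pass (log2 change 0.10; limma, adjusted p = 0.429). Thus the desaturase genes on both sides of that elongation step rose while the elongase gene itself was not called, and the difference between them was not tested. Of the 8, 0 rose without wild type replicate 4 and 1 rose, elo-2, without wild type replicate 3. The genes not called were set against the wild-type mean, on the log2 scale, in mutant replicates 3 and 4. In that order elo-5 was at 0.27 and 0.90, elo-6 at 0.26 and 0.82, elo-1 at 0.01 and 0.20 and fasn-1 at -0.14 and -0.45.

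Of the 6 genes listed for fatty acid use, several of them known to depend on NHR-49, 5 were matched and 0 passed. Among all genes tested 4.41% rose and 10.7% fell, so a list this short can hold 0 calls. The acyl-CoA synthetase gene acs-2, a standard readout of NHR-49, was at 6.96 and 4.27 CPM in the mutant and 10.7 and 10.9 CPM in wild type, below it in both libraries (log2 change -0.86, SE 0.25; limma, adjusted p = 0.0595). By contrast acdh-1, for a short-chain acyl-CoA dehydrogenase, was at 430 and 380 CPM in the mutant and 337 and 271 CPM in wild type (0.42, SE 0.12; limma, adjusted p = 0.0502). The flavin monooxygenase gene fmo-2 overlapped between groups at 1.82 and 4.27 CPM in the mutant and 0.754 and 2.02 CPM in wild type. The median of the list was 0.42, with genes on both sides of 0. Without mutant replicate 3, acs-2 fell and acdh-1, cpt-5 and fmo-2 rose, and acdh-1 also rose without mutant replicate 4 or wild type replicate 3.

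**Figure D4:**
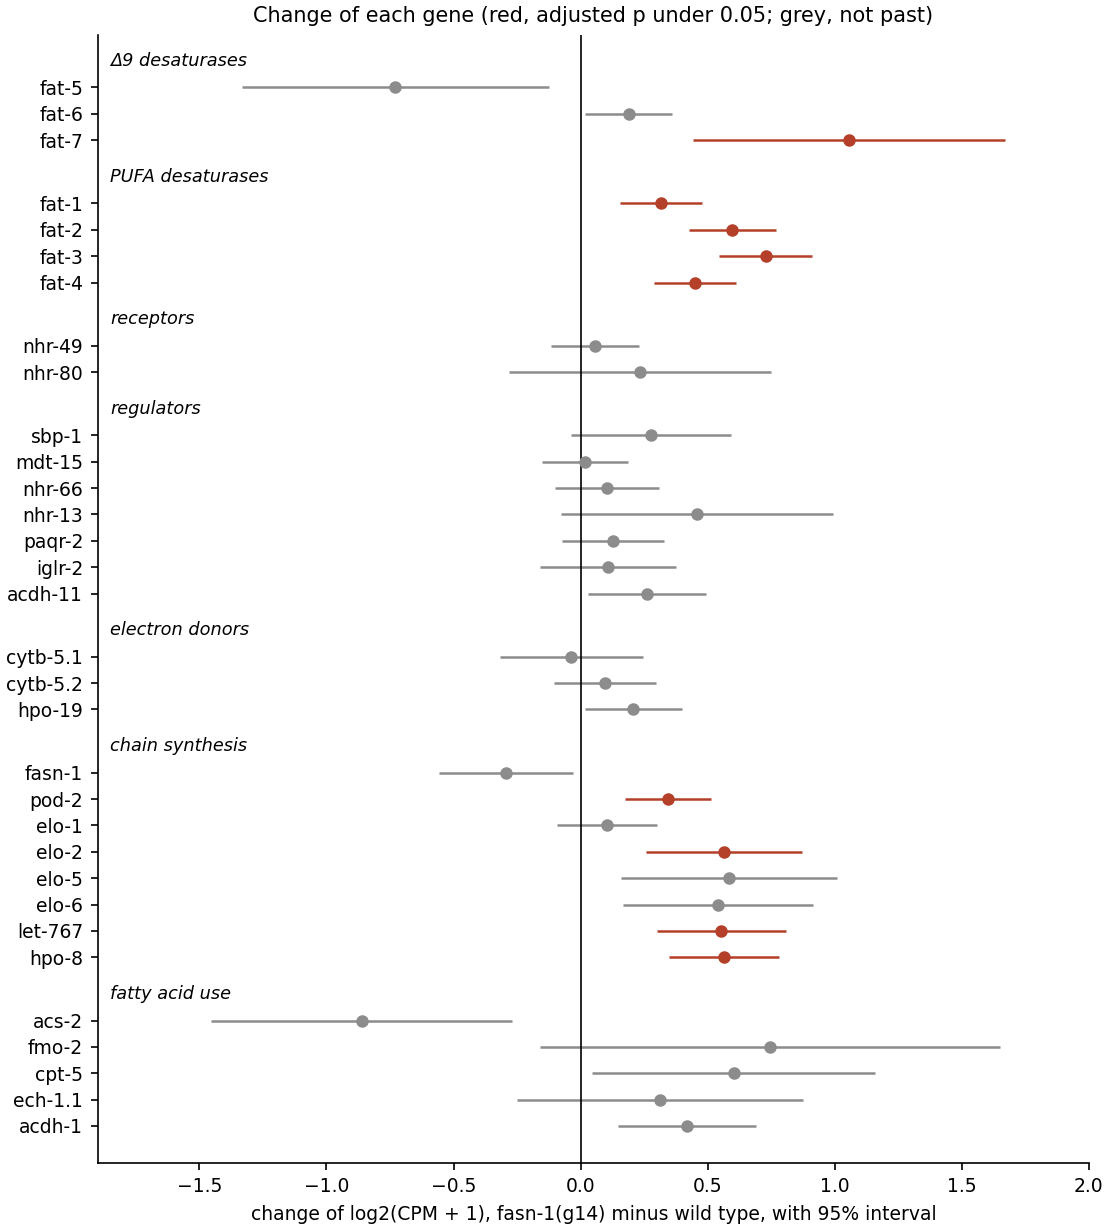
Change of log2(CPM + 1), mutant minus wild type, with its 95% interval (horizontal axis) for the 9 members and the 23 surrounding genes measured, grouped by role; red marks adjusted p under 0.05 by limma and grey the rest. The 4 PUFA desaturase genes and fat-7 are red among the members, fat-5 lies left of 0, and nhr-49 lies at 0.06 here and at -0.04 with plain CPM.

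Patterns over the 4 libraries were compared among 4284 genes, other than the members, with a mean of at least 20 CPM. Only genes with a symbol of letters, hyphen and number were included, so other genes at that level were not compared. Those most like fat-2 were ges-1, an intestinal esterase gene, hgo-1, for homogentisate oxidase, and vit-3, a yolk protein gene. Their Euclidean distances from fat-2, in centred log2(CPM + 1), were 0.0164, 0.0565 and 0.0583. The level of ges-1 was 31.0 and 29.9 CPM in the mutant and 19.2 and 20.6 CPM in wild type. Nearest to fat-7 were the cuticle collagen genes col-159, col-124 and col-80, at distances of 0.148, 0.155 and 0.232, and col-124 stood at 835 and 1241 CPM in the mutant and 528 and 377 CPM in wild type. With 4 libraries such likeness describes these samples only.

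Over 13 alternative settings the direction of each desaturase gene held, and which calls held differed by gene. These settings re-fit the same libraries and include a crossed pairing of replicate numbers, chosen after seeing the data. The tallies are therefore not independent support. The call of fat-3 was kept in 13 of them, fat-2 in 12, fat-4 in 11, fat-1 in 10 and fat-7 in 9. Without wild type replicate 3, only fat-3 and fat-7 rose, and without wild type replicate 4, only fat-2 and fat-3. The fit then has a lone wild-type library that is assumed to vary like the mutant pair. Where a mutant library is left out, the remaining one is assumed to vary like the wild-type pair, which was more alike.

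**Figure D5:**
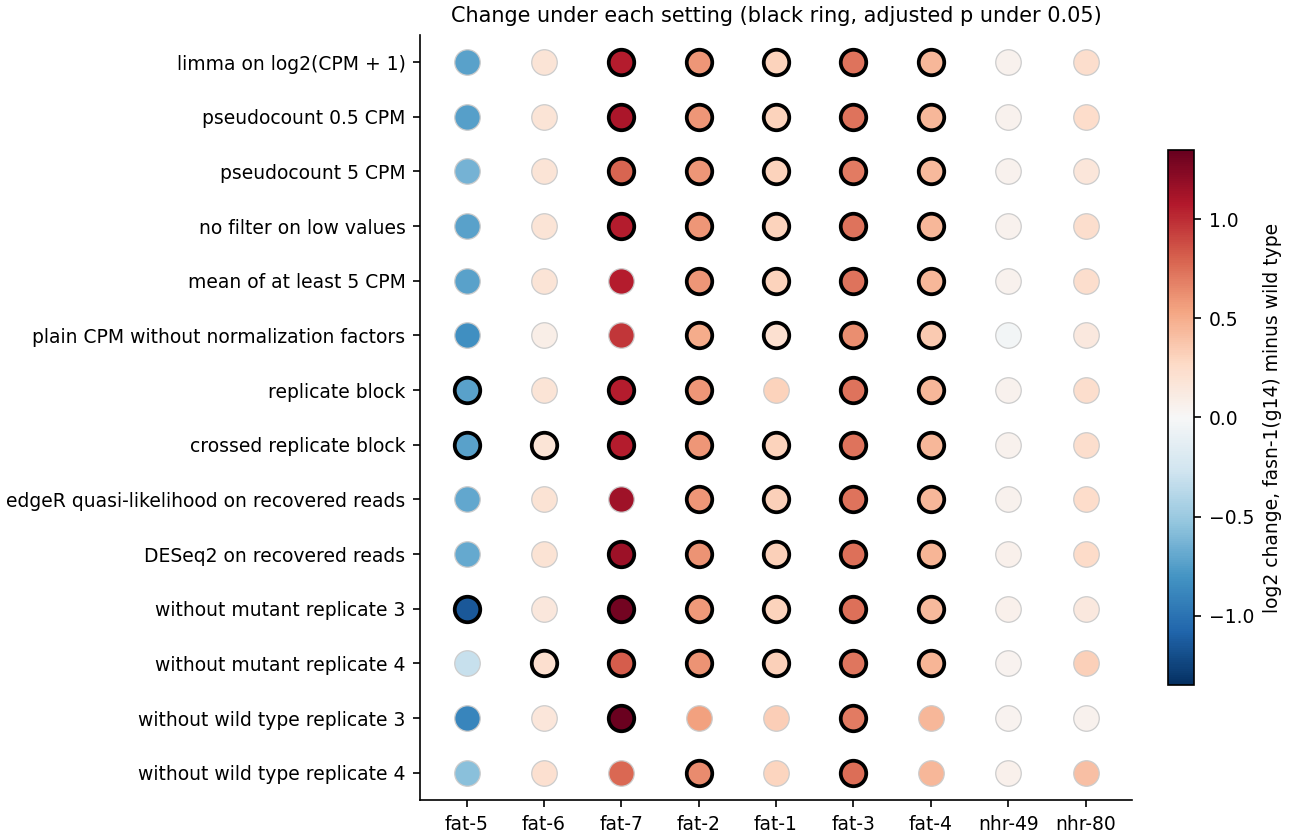
Log2 change of each member, mutant minus wild type (colour scale), under the reported fit (top row) and 13 alternatives (rows); a black ring marks adjusted p under 0.05. Rings are complete down the fat-3 column, missing once for fat-2, and absent throughout for nhr-49, which is at -0.04 with plain CPM, and nhr-80.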

How the data were processed

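The authors deposited 1 table of a normalized signal in CPM per gene, treated as signal because its columns do not sum to exactly the CPM total; the submitters' processing notes name HTSeq 0.12.4, Bowtie2 2.3.3.1 and edgeR 3.28.1, with roles, genome build and annotation not given in the sources used here. Per the labels' protocols, each library came from 750 recovered animals and 1 µg of total RNA with NEBNext Ultra II, which does not mark strand. Every positive value was a whole multiple of its column's smallest step within 0.001 read (100% of values in each library), and reads were recovered from these steps. Columns of 8 other libraries were not used. Of 13758 rows, 13747 matched 1 gene of Ensembl release 115 (WBcel235), used for names and positions only; of the surrounding genes listed, 23 of 24 symbols matched.

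The 12977 genes that reached 1 CPM in 2 or more libraries were fitted with limma 3.58.1 in R 4.3.3 on log2(CPM + 1), with genotype as term and a trended prior variance, two-sided, Benjamini-Hochberg over all genes, threshold 0.05. The log2 scale with its pseudocount understates changes of low genes. CPM per kb used the union of annotated exons. Alternatives used edgeR 4.0.16 (439 genes higher and 913 lower) and DESeq2 1.42.0 on recovered reads, other pseudocounts, filters and scaling, a replicate block and each library left out. The fit was tested on simulated data. Reads without molecular identifiers are not independent molecules. The members, gene lists and tests were chosen with earlier results of these data known. Named genes are the members, fasn-1, listed surrounding genes that passed with up to 3 per list that did not, and the 3 most like fat-2 and fat-7 in pattern; neighbours were added by position, and twk-42 for its overlap. Sequences were not used here.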

Additional observations from a re-analysis of the deposited data

How the results depend on the processing

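Members past the test numbered 5 higher and 0 lower. Across settings that keep all 4 libraries, 4 to 6 were higher; 1 was lower, fat-5, with the replicate block and with the crossed block. Without 1 library, 2 to 6 were higher and 0 to 1 lower. With plain CPM nhr-49 turned to -0.0406; the cause was not tested. Surrounding genes past the test numbered 4 higher and 0 lower. They numbered 7 higher and 1 lower with the replicate block, 7 higher by DESeq2, 1 lower with a pseudocount of 5 CPM, and 0 to 14 higher and 0 to 2 lower without 1 library. Of all genes 572 rose and 1386 fell. With a mean of at least 5 CPM these were 288 and 509, with fewer genes tested; with plain CPM 359 rose, and 1431 fell. By edgeR 439 rose and 913 fell. Without 1 library 151 to 2346 rose and 179 to 3268 fell; where wild type lost a library, 151 and 152 rose.

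The PUFA minus delta-9 difference stayed between 0.29 and 0.42, the fat-6 share between -4.09 and -1.73 percentage points and the fat-3 share between 3.71 and 4.45 points, against 0.35, -2.91 and 4.08. The labels number the replicates 3 and 4 in both groups and do not say that a number marks a shared batch. Deviations of equal numbers correlated at -0.21 across genes, so the numbers were not taken as pairs. With the replicate block 626 genes rose and 1872 fell, among the members 4 rose and 1 fell, and fat-1 was at adjusted p = 0.0558. Crossed pairing, chosen after seeing the data, gave 1197 rises and 2310 falls, with 6 and 1 among the members and 7 and 2 among the surrounding genes. The fewest reads among the members were those of fat-7, at 86 to 299, and nhr-80, at 108 to 148. The widest gap between the mutant libraries, 0.83 on the log2 scale, was that of fat-5, from 451 and 258 reads. The part of depth in the spread between replicates was not tested.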
